A study of Macaca mulatta with 5 samples.

Results

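Levels of the edited glutamate receptor genes GRIA2, GRIA3, GRIA4, GRIK1 and GRM4 were examined in RNA-Seq libraries of 5 rhesus macaque tissues. The study lists verified coding sites in GRIA2 and GRM4. Known human sites in GRIA3, GRIA4 and GRIK1 did not pass its filters, although it shows edited reads at these sites in cerebellum and prefrontal cortex. All transcripts sharing a gene identifier with 1 named transcript each of GRIA2, GRIA3, GRIA4 and GRIK1 were taken, together with the transcripts of the GRM4 locus. This gave 14 transcripts of 5 genes, of 51763 transcripts and 28633 gene identifiers in all. The study sequenced poly(A)-positive, strand-specific libraries to find where RNA differs from the DNA of the same animal. Cerebellum, kidney, lung and heart came from that male animal, by the study's methods. The spleen library is labelled as male too, but the sources used here do not state its animal. Each tissue had 1 library of untreated tissue, so no replicate error exists and no test between tissues was made.

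Glutamate is the main excitatory transmitter of the brain, and it acts on ion channels (AMPA, kainate and NMDA receptors) and on slower receptors that couple to G proteins (metabotropic receptors). ADAR enzymes convert adenosine to inosine in some of these RNAs, inosine is read as guanosine, and the encoded amino acid can change. In GRIA2 this exchange, at the glutamine/arginine site of the channel pore, keeps calcium from passing through AMPA receptors. The cerebellum is rich in small excitatory neurons, the granule cells, whose parallel fibres release glutamate onto Purkinje cells.

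Properly mapped reads ranged from 48306898 in kidney to 81517974 in cerebellum. RPKM scales the reads of a transcript to its exon length and to these totals. Intervals given with RPKM values and ratios are exact 95% intervals of the read numbers, with each read taken as independent. They cover counting error only, since the reads carry no molecular identifiers. The libraries are paired-end, so where both mates of a pair were counted these intervals are too narrow. For a gene, the main transcript is the one with the highest RPKM summed over the 5 tissues. All 15 markers of kidney (such as UMOD), lung (SFTPB), heart (MYH7) and spleen (MS4A1) in the files were highest in the tissue of their label. In cerebellum the 4 granule cell markers in the files (GABRA6, NEUROD1, ZIC1 and CBLN3) reached 47.3 to 265.4 RPKM.

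All 14 transcripts had at least 1 RPKM in cerebellum, and 0 of 14 did in kidney, lung, heart or spleen. Over the whole table, 42.8% of transcripts reached 1 RPKM in cerebellum, and 3.45% did so in cerebellum and in no other tissue. In kidney, lung, heart and spleen the shares were 45.2%, 49.1%, 33.7% and 47.4%. Levels of the 14 transcripts ran from 1.49 to 69.1 RPKM in cerebellum. The highest level outside cerebellum was 0.766 RPKM, for GRM4 in spleen. In bulk tissue, fewer cells of a type and less RNA per cell cannot be told apart.

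**Figure D1:**
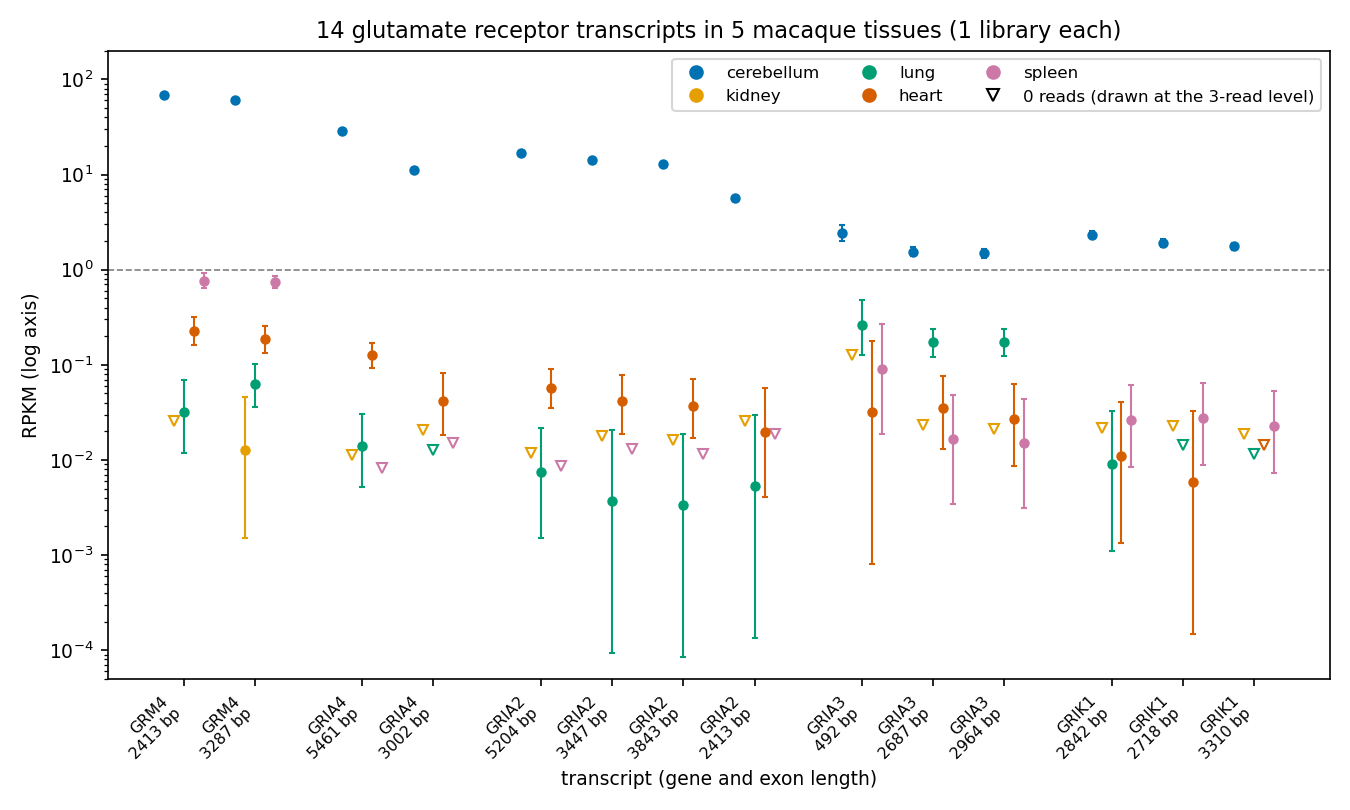
RPKM (log axis) of the 14 transcripts, grouped by gene and named by exon length, in 1 library each of 5 tissues (colours). Bars are 95% counting intervals, open triangles mark 0 reads and are drawn at the level of 3 reads, and the dashed line is 1 RPKM. Every cerebellum point lies above the line and every other point below it.

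GRM4, a metabotropic receptor that inhibits transmitter release from parallel fibre terminals, had the highest level of the 5 genes. Its main transcript (IMMRT10001010015) had 69.1 RPKM in cerebellum from 13595 reads, 0.766 RPKM in spleen from 124 reads, 0.229 in heart from 35, 0.0320 in lung from 6, and 0 reads in kidney. It ranked 356 of 28633 genes in cerebellum. The level in cerebellum was 90.3-fold that in spleen (interval 75.6 to 108.6) and at least 2685-fold that in kidney, where 3 reads set the limit. GRM4 was thus well above the other 4 genes, and its intervals in spleen and heart (0.637 to 0.913 and 0.160 to 0.319 RPKM) did not overlap on the deposited scale. With TMM scaling GRM4 had 0.542 in spleen and 0.457 in heart, and with median-of-ratios scaling 0.529 and 0.485, and the rescaled intervals overlapped. The second GRM4 transcript shared the order of the tissues, with 60.9 RPKM in cerebellum, 0.743 in spleen, 0.187 in heart, 0.0626 in lung and 0.0126 in kidney, the last from 2 reads.

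GRIA4, an AMPA receptor subunit known from granule cells and Bergmann glia, followed. Its main transcript (IMMRT10011030921) had 28.6 RPKM in cerebellum from 12754 reads, 0.127 in heart from 44 and 0.0141 in lung from 6. Kidney and spleen had 0 reads. The ratio of cerebellum to heart was 225-fold (168 to 310), and the ratio to spleen was at least 3500.0-fold. Only heart and lung therefore held reads of this gene outside cerebellum, and in both the level stayed under 0.5% of that in cerebellum.

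GRIA2, the AMPA subunit whose editing sets the calcium permeability of the channel, came next. Its main transcript (IMMRT10001012963) had 17.0 RPKM in cerebellum from 7192 reads, 0.0577 in heart from 19, and 0.00741 in lung from 3. Kidney and spleen again had 0 reads. The level in cerebellum was 294-fold that in heart (188 to 489), at least 1421-fold that in kidney and at least 1974-fold that in spleen. GRIA2 and GRIA4 thus had reads in the same 3 tissues, in the same order.

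GRIA3, an X-linked AMPA subunit, and GRIK1, a kainate receptor subunit, were the lowest. The main GRIA3 transcript is a short model of 492 bp, with 2.44 RPKM in cerebellum from 98 reads, 0.261 in lung from 10, 0.0909 in spleen from 3, 0.0321 in heart from 1, and 0 reads in kidney. The longer GRIA3 transcript named in the selection (IMMRT10001042315, 2687 bp) had 1.54 RPKM from 337 reads, 0.172 in lung from 36, 0.0353 in heart from 6, 0.0166 in spleen from 3, and 0 reads in kidney. On both, lung was the highest tissue after cerebellum. The main GRIK1 transcript (IMMRT10001007356) had 2.34 RPKM in cerebellum from 542 reads, 0.0262 in spleen from 5, 0.0111 in heart and 0.00905 in lung from 2 each, and 0 reads in kidney.

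The order of the levels in cerebellum was GRM4, GRIA4, GRIA2, GRIA3 and GRIK1. Intervals of neighbours did not overlap, except for GRIA3 (1.98 to 2.98 RPKM) and GRIK1 (2.15 to 2.55), which could not be told apart. With the longer GRIA3 transcript (1.38 to 1.71 RPKM), GRIK1 was above GRIA3. With RPKM summed over the transcripts of a gene, GRIA2 (49.7) stood above GRIA4 (39.7), and GRIK1 (6.0) above GRIA3 (5.47). GRM4 remained first, at 130.0 RPKM. Such sums can count a read of a shared exon for each transcript, and GRIA2 has 4 transcripts against 2 for GRIA4.

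A gene was called cerebellum-high when its main transcript had at least 1 RPKM in cerebellum and at least 10 times the highest of the other 4 tissues, each set to no less than 3 reads. By this rule 4 of the 5 genes were called (GRIA2, GRIA4, GRIK1 and GRM4), against 633 of all genes (2.21%), 4.03% of genes with at least 1 RPKM in any tissue and 5.54% of the 11436 genes with at least 1 RPKM in cerebellum. The median ratio of cerebellum to the highest other tissue was 90.3 over the 5 genes, 0.104 over all genes and 0.601 over genes with at least 1 RPKM in cerebellum. GRIA3 fell short of the rule, at 9.35-fold over lung (4.88 to 20.1) on its short transcript and 8.93-fold (6.32 to 13.0) on the longer one. Its intervals include 10.

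Another scaling of the libraries changed the GRIA3 call and several ratios. With edgeR's TMM factors, cerebellum shifted against heart by -0.88 on the log2 scale, against spleen by 0.62, against lung by 0.60 and against kidney by 0.25. GRIA3 then passed the rule at 13.8-fold, and at 12.6-fold with median-of-ratios scaling, both against heart. Heart had 1 read on this transcript and was set to 3 reads. With upper quartile scaling the ratio was 11.8-fold, against lung. On the deposited scale the GRIA3 intervals over lung include the fold limit of the rule. No intervals are given for the rescaled GRIA3 ratios, so this pass is not shown to exceed counting error. The ratio of cerebellum to the highest other tissue became 160 for GRIA2 and 123 for GRIA4, both against heart, and 138 for GRM4 against spleen.

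Isoform levels were compared within each gene in cerebellum. Reads that lie in exons common to several transcripts can be counted for each, so isoform reads do not add up to the reads of a gene. GRIA2 (ENSMMUG00000018272, rheMac2 chromosome 5, 149441258 to 149591058) had 4 transcripts at 5.60, 13.0, 14.1 and 17.0 RPKM in cerebellum. The lowest had the shortest exons (2413 bp) and the highest the longest (5204 bp). GRIA4 (ENSMMUG00000010987, chromosome 14, 104215236 to 104587499) had 2 transcripts, at 28.6 RPKM with 5461 bp of exons and at 11.1 RPKM with 3002 bp. In both genes the transcript with the longest exons was thus the main one.

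GRM4 (ENSMMUG00000023046, chromosome 4, 33720832 to 33856330) showed the opposite order, with 69.1 RPKM on 2413 bp and 60.9 RPKM on 3287 bp of exons. The 3 GRIK1 transcripts (ENSMMUG00000004886, chromosome 3, 16714167 to 17120621) lay between 1.75 and 2.34 RPKM. The 3 GRIA3 transcripts (ENSMMUG00000009054, chromosome X, 121384350 to 121702092) lay between 1.49 and 2.44 RPKM. The highest isoform was 3.03-fold the lowest in GRIA2, 2.58-fold in GRIA4, 1.64-fold in GRIA3, 1.33-fold in GRIK1 and 1.14-fold in GRM4. Each gene is stretched over long introns, since exons made up 0.670% to 3.50% of the spans of the 14 transcripts. The files give the span and the exon length of a transcript but not the positions of its exons.

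**Figure D2:**
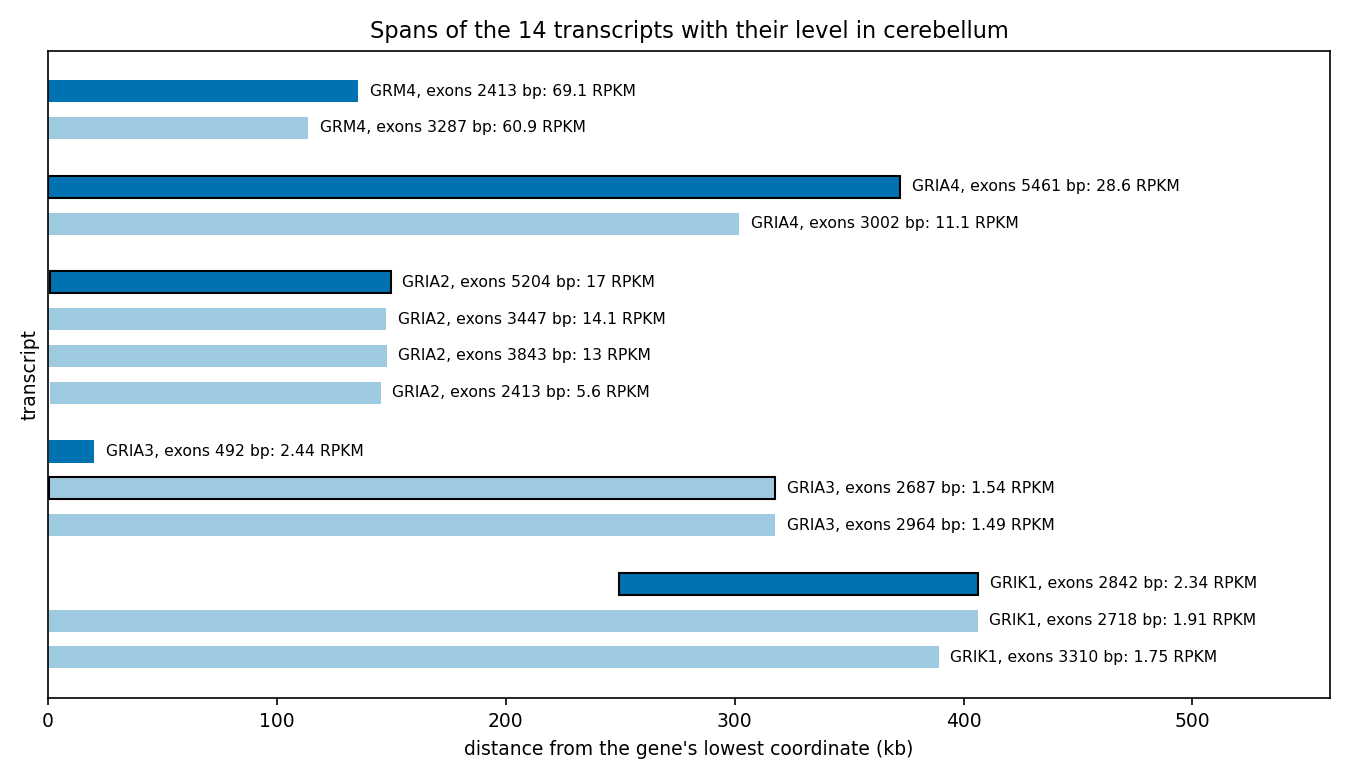
Span of each of the 14 transcripts in kb from the lowest coordinate of its gene, with the exon length and the RPKM in cerebellum written beside it. Dark bars are main transcripts and outlined bars the transcripts named in the selection. The main transcripts of GRIA2 and GRIA4 have the longest exons of their genes, while that of GRIA3 covers only the first stretch of the locus.

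Among the 4 AMPA subunits, which join into one channel, GRIA4 made up 44.9% of the summed RPKM of main transcripts in cerebellum (63.8 RPKM), GRIA2 26.6%, GRIA1 24.7% and GRIA3 3.83%. GRIA1 had 15.8 RPKM (15.4 to 16.1), close below GRIA2 (16.6 to 17.3) without overlap of the intervals. Outside cerebellum the mix was another. GRIA1 led in heart (0.595 RPKM, 73.3% of the sum) and in spleen (0.324 RPKM, 78.1%). In lung GRIA3 was highest, from 10 reads (68.4% of a sum of 0.382 RPKM). Its interval (0.125 to 0.481 RPKM) overlapped that of GRIA1 (0.0721 to 0.133), so these subunits could not be told apart there. With the longer GRIA3 transcript, GRIA1 had 95.1% in spleen. GRIA3 then had 58.8% in lung, again with overlap (0.121 to 0.238 RPKM). All 4 subunits had 0 reads in kidney on their main transcripts, where 3 reads correspond to between 0.0114 and 0.126 RPKM for the 3 edited ones.

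Among the kainate subunits in cerebellum, GRIK1 (14.4% of 16.2 RPKM) was below GRIK5 at 8.02 and GRIK2 at 4.79 RPKM. GRIK5, which forms channels only together with subunits such as GRIK1 and GRIK2, also had 2.09 RPKM in kidney, 1.71 in lung and 1.32 in spleen. GRIK1 stayed below 0.03 RPKM in those tissues. GRIK4 had 0.743 and GRIK3 0.314 RPKM in cerebellum.

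GRM4 held 75.2% of the summed RPKM of the 8 metabotropic receptors in cerebellum (91.9 RPKM). GRM3 had 8.60 and GRM2 4.56 RPKM. GRM5, GRM7 and GRM8 stayed below 1 RPKM, and GRM6, the receptor of retinal bipolar cells, had 0 reads on its main transcript in every library. In spleen GRM2 (2.26 RPKM) stood above GRM4 (0.766). Over all classes GRM4 was the highest glutamate receptor in cerebellum, above the NMDA subunits GRIN1 (50.1 RPKM), which every NMDA receptor needs, and GRIN2C (26.0), the subunit typical of mature granule cells.

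**Figure D3:**
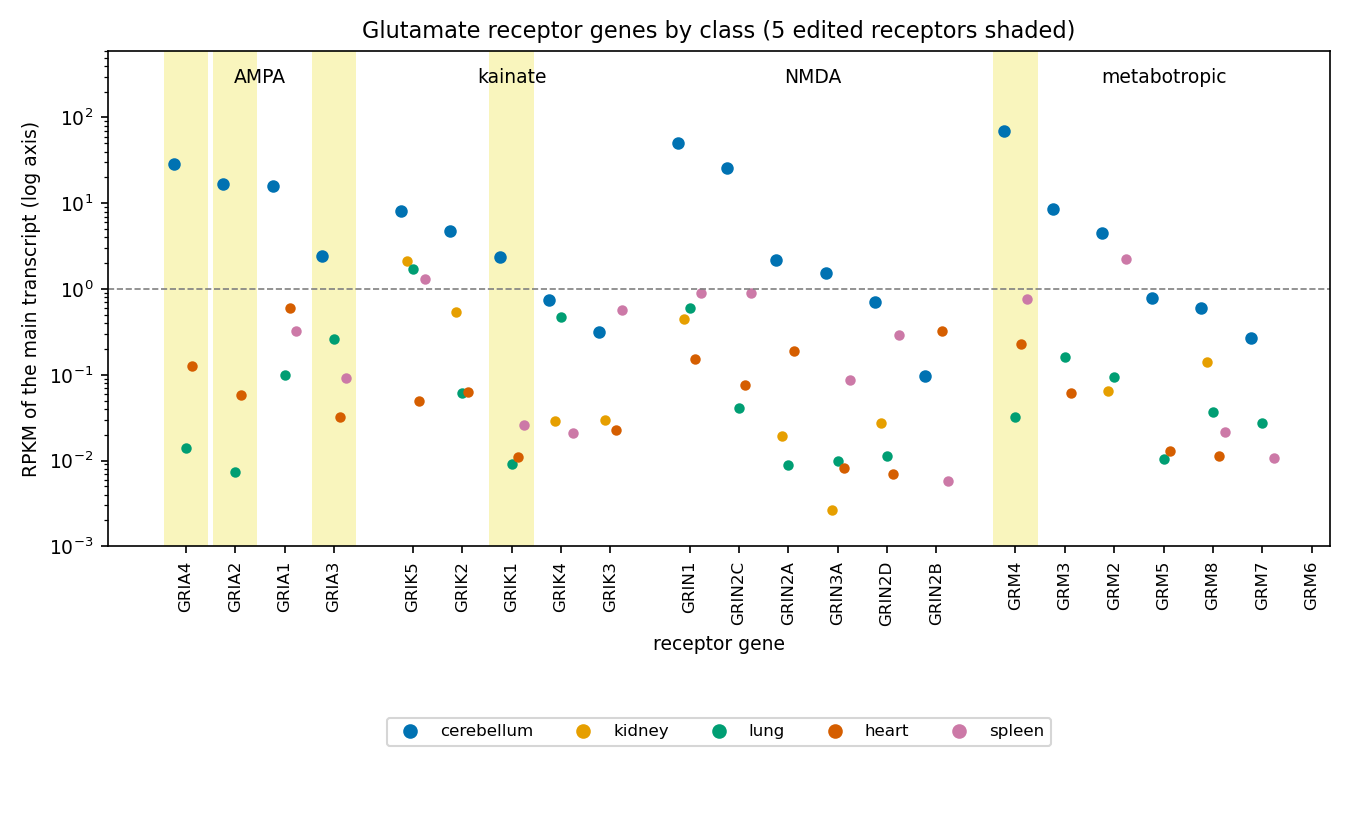
RPKM (log axis) of the main transcripts of AMPA, kainate, NMDA and metabotropic glutamate receptor genes, by class and in order of the level in cerebellum, in 1 library of each of 5 tissues (colours). The 5 edited receptors are shaded, points at 0 reads are left out, and the dashed line is 1 RPKM. GRM4 has the highest point, and GRIA4 and GRIA2 lead the AMPA class.

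Of the other ionotropic receptors, 7 of the 13 in the files were cerebellum-high, among them GRIA1, GRIN1, GRIN2A, GRIN2C and GRIN3A. The share over all genes was 2.21%, and 5.54% over genes with at least 1 RPKM in cerebellum. Of the other metabotropic receptors 2 of 7 were called, among them GRM3. Of the auxiliary subunits that traffic and tune these channels, 4 of 9 were called. They were CACNG2 (stargazin), which carries AMPA receptors to the granule cell surface, at 36.0 RPKM, CACNG3 at 2.70, CACNG7 at 40.8 and CNIH2 at 24.5. Of the partners of kainate receptors, NETO1 had 0.0381 RPKM in cerebellum from 6 reads. NETO2 had 0 reads on its main transcript in every library. Synaptic scaffolds were called in 3 of 13 cases (DLG2, DLG4 and SHANK1), and genes of glutamate transport in 4 of 6, led by SLC1A3 of Bergmann glia (165 RPKM) and SLC17A7, the vesicular transporter of granule cells (132).

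Of the cerebellar marker lists, 4 of 4 granule cell, 1 of 4 Purkinje cell, 2 of 4 Bergmann glia and astrocyte, 3 of 3 oligodendrocyte and 5 of 5 neuron markers were called, against the same 2.21% of all genes and 5.54% of genes with at least 1 RPKM in cerebellum. CALB1, a Purkinje cell marker, had 488 RPKM in kidney and 108 in cerebellum.

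None of the 3 genes of the editing enzyme family was cerebellum-high. The share was 2.21% over all genes and 5.54% over genes with at least 1 RPKM in cerebellum. ADARB1, which encodes the enzyme known to edit the glutamine/arginine site of GRIA2, was highest in cerebellum (21.4 RPKM), with 13.2 in lung, 2.66 in spleen, 1.71 in kidney and 0.608 in heart. ADAR was highest in spleen (43.9 RPKM) and had 16.9 in cerebellum. ADARB2, a family member without known editing activity, had 0.748 RPKM in cerebellum and at most 0.0689 elsewhere. At 10.9-fold, ADARB2 missed the call only by the minimum of 1 RPKM. ADAR exceeded 1 RPKM in all 4 other tissues and ADARB1 in 3 of them, whereas the 5 receptors did so in none.

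In heart, 4 of the 5 receptors lay at a similar small share of their level in cerebellum. As a percent of the level in cerebellum, heart had 0.331% for GRM4, 0.340% for GRIA2, 0.444% for GRIA4, 0.475% for GRIK1 from 2 reads and 1.31% for GRIA3 from 1 read. The longer GRIA3 transcript had 2.29% from 6 reads. The granule cell markers lay between 0.195% and 0.367% in heart. The 5 markers of neurons of any kind (SNAP25, SYT1, STMN2, RBFOX3 and ELAVL4) lay between 0.0959% and 0.554%. Purkinje cell markers ran from 0.0648% to 2.38% in heart, and Bergmann glia and astrocyte markers from 0 to 5.63%. Oligodendrocyte markers ran from 0.613% to 0.852%. Over all 633 cerebellum-high genes the median in heart was 0.525%, with quartiles of 0.294% and 1.22%. Of the 377 such genes with at least 10 RPKM in cerebellum, 2 had 0 reads in heart, against 96 in kidney, 34 in lung and 74 in spleen. Summed over the 4 granule cell markers, heart had 1.61 RPKM, kidney 0.218, lung 0.371, spleen 0.832 and cerebellum 603. The part of these markers in the heart levels of the receptors was not tested.

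In spleen and lung some receptors lay above the granule cell and neuron markers. Purkinje cell markers reached higher, running from 0.244% to 17.9% in spleen and from 1.11% to 17.1% in lung. Bergmann glia and astrocyte markers ran up to 0.286% in spleen and 220% in lung. Oligodendrocyte markers ran up to 0.435% in spleen and 0.736% in lung. In spleen GRM4 had 1.11% of its level in cerebellum, while GABRA6, NEUROD1 and ZIC1 had 0 reads, CBLN3 had 0.362% and the neuron markers 0.00316% to 0.729%. GRIK1 had 1.12% there from 5 reads, and GRIA3 had 3.72% on the short and 1.08% on the longer transcript, each from 3 reads. Over the 633 cerebellum-high genes, which include GRM4 and GRIK1, the median in spleen was 0.554%, with quartiles of 0 and 2.51%. GRM4 and GRIK1 lay between these quartiles. In lung GRIA3 had 10.7% on the short transcript and 11.2% on the longer one, against at most 0.157% for the granule cell markers and 0.434% for the neuron markers. The median of the cerebellum-high genes in lung was 0.638%, with quartiles of 0.105% and 2.67%. The 10-fold rule allows these genes at most 10% in another tissue, and GRIA3 is not among them. That GRIA3 lay above them in lung was therefore fixed by the rule. The other 4 receptors had at most 0.387% in lung.

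**Figure D4:**
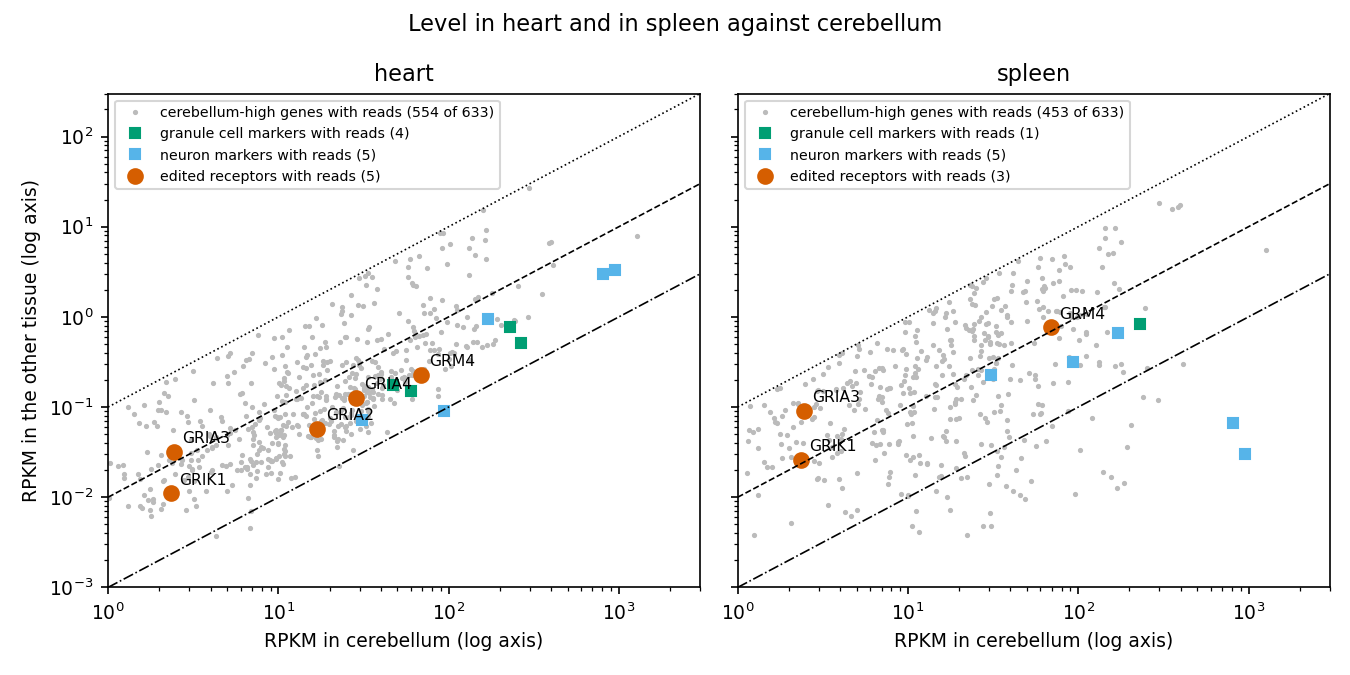
RPKM in heart (left) and in spleen (right) against RPKM in cerebellum, both on log axes, for cerebellum-high genes with reads in that tissue (grey), granule cell and neuron markers (squares) and the edited receptors (circles). The dotted, dashed and dash-dotted lines are 10%, 1% and 0.1% of the level in cerebellum. In heart GRM4, GRIA4, GRIA2 and GRIK1 lie between 0.331% and 0.475% beside the granule cell and neuron markers, GRIK1 from only 2 reads. In spleen GRM4 lies at 1.11%, above the shares of these markers.

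Likeness to other genes was measured as the Euclidean distance between log2(RPKM + 0.1) of main transcripts over the 5 tissues, which is a description with 1 library a tissue. Of the 3 nearest genes outside the lists for each receptor, 5 of 15 had no symbol. Nearest to GRM4 was SNAP91, a clathrin assembly protein of synaptic vesicles (distance 0.958), which had 38.3 RPKM in cerebellum, 1.04 in spleen and 0.227 in heart. For GRIA4 the named neighbours were DISP2 (0.224) and SYNPR, a synaptic vesicle protein (0.298). ARPP21 (0.237) was near GRIA2, and CELSR3, a cadherin of growing axons (0.373), near GRIK1. The named neighbour of GRIA3 given here, CD300E, was farther away, at 0.822. Other measures kept only 4 (a pseudocount of 1) or 6 (1 minus Pearson's correlation) of the 15.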

How the data were processed

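Poly(A)-positive, strand-specific paired-end libraries of 5 macaque tissues were sequenced by the authors. Per the study's methods reads were placed by BWA on rheMac2 and on Ensembl transcripts, and the submitters' processing notes name TopHat 1.2.0. The counting tool is not given in the sources used here. The deposited read counts per transcript were not normalized. The deposited RPKM values divide these counts by exon length and by the properly mapped reads, and they were recomputed from the counts without a mismatch. Transcripts of a gene can carry the same reads. The spleen file counts start positions from 1 and the other 4 from 0, and 1-based positions are given here. Summed transcript reads were 47.9% of the mapped reads in heart and 71.3% to 91.5% in the other tissues.

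Rows were joined by transcript identifier. Gene symbols came from an Ensembl identifier table, which names 15556 of 28633 gene identifiers and all 5 receptors. Of the 98 listed symbols, those not matched in the files were left out. The heart label's protocol speaks of 2 tissues without naming them. Exact Poisson intervals of reads and exact conditional binomial intervals of ratios were at 95%, and ratios against 0 reads were set at 3 reads. With 1 library per tissue no test was run. The call rule was tested on simulated data. The receptors and gene lists were chosen with earlier results of these data known. Named genes were the receptors, the fixed lists of receptors, partners, editing enzymes and markers, and the 3 genes nearest to each receptor. Alternatives were other thresholds, folds, pseudocounts, scalings and rows for a gene. Some genes of the lists and neighbours are not reported here. Editing levels are not reported here, since the files hold no sites. Python 3.11.15, numpy 2.4.6, pandas 2.3.3, scipy 1.17.1, matplotlib 3.10.9, R 4.3.3 and edgeR 4.0.16 were used.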

Additional observations from a re-analysis of the deposited data

How the results depend on the processing

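Of the 5 receptors, 4 were cerebellum-high with a minimum of 0.5 or 0.1 RPKM, a 20-fold rule, a pseudocount of 0.1, summed transcripts, at least 10 reads, or without the heart or the spleen library. With a minimum of 3 RPKM or a pseudocount of 1, 3 were called (GRIA2, GRIA4 and GRM4). With a 5-fold rule or with TMM, upper quartile or median-of-ratios scaling, all 5 were. A pseudocount of 1 lowered the count over all genes from 633 to 302, and the other settings gave 443 to 900. In the order of levels, 3 genes kept their place with the named GRIA3 transcript and 1 with summed transcripts. At 0.1 RPKM, 3 transcripts were detected in lung, 3 in heart and 2 in spleen, and at 0.5 RPKM 2 in spleen. By more than 3 reads there were 6, 9 and 5. With 5-fold, list counts moved by at most 1. Depth limits what can be said of kidney most, since 3 reads on 1 kb of exons are 0.0621 RPKM there and 0.0368 to 0.0474 elsewhere. No paired analysis was possible because each tissue has 1 library and the labels give no replicate numbers, and for the same reason no replicate could be left out.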

Other observations

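Some partners of the receptors were highest outside cerebellum. CNIH3, an auxiliary subunit of AMPA receptors, had 1.78 RPKM in lung and 0.676 in cerebellum, the opposite order to CNIH2. GRIN2B, an NMDA receptor subunit of the young brain, had 0.322 RPKM in heart from 105 reads and 0.0976 in cerebellum from 41. GRIK3 had 0.563 RPKM in spleen and 0.314 in cerebellum. SLC1A1, a transporter for glutamate and aspartate, had 54.2 RPKM in kidney, 19.5 in lung and 4.84 in cerebellum. HOMER2, a scaffold of metabotropic receptors, had 12.1 RPKM in kidney and 1.55 in cerebellum. Each of these values comes from 1 library.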
